A study of Homo sapiens with 9 samples.

Results

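The 10 genes described here encode 7 NRF2 targets of redox and cystine metabolism (NQO1, HMOX1, GCLM, GCLC, SLC7A11, TXNRD1 and SRXN1), the chains of ferritin (FTH1 and FTL) and the lipid peroxide-reducing selenoenzyme GPX4. They were chosen by gene name from the 58735 genes of a count table of OVCAR4 cells, and all 10 passed the filter on low counts that left 16928 genes for testing. With shMPZL3 #1, FTH1 rose 1.58-fold, and TXNRD1 and SLC7A11 fell to 0.615 and 0.590 of the control level, the latter a call that was lost without replicate 1 of scr control or without replicate 1 or 3 of shMPZL3 #1. With shMPZL3 #2, HMOX1 rose 1.59-fold, and TXNRD1 and SLC7A11 were not called against control. GPX4, GCLC, SRXN1, NQO1 and GCLM were not called by the main edgeR fit in any comparison. In alternative settings NQO1 passed the test with shMPZL3 #1 without replicate 1 of scr control. GCLM passed it with shMPZL3 #1 and between the shRNAs, each with a block for the replicate number or without replicate 2 of shMPZL3 #1. With both shRNAs grouped, the main edgeR fit called none of the 10 genes, and FTH1 just missed the threshold (adjusted p = 0.0517). In alternative settings DESeq2 called FTH1, as did several edgeR fits, and some edgeR fits called TXNRD1. FTH1 stayed uncalled in 9 and TXNRD1 in 12 of these 16 settings.

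OVCAR4 is an established human cell line of high-grade serous ovarian carcinoma. RNA-seq was performed in 9 libraries, 3 of cells transduced with a scramble (scr) control shRNA, 3 with shMPZL3 #1 and 3 with shMPZL3 #2, both directed against MPZL3, a predicted cell adhesion molecule with an immunoglobulin domain. All cells, the control included, carried a lentiviral pLKO.1 vector, were selected with puromycin and were harvested as pools of transduced cells, in which the extent of knockdown can differ from cell to cell. The methods of the study speak of 3 biological replicates but not of separate transductions, so that p-values measure the spread between these libraries.

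NRF2 (gene NFE2L2) is held in the cytoplasm and marked for degradation by KEAP1 until electrophiles or oxidants modify KEAP1. It then pairs with a small MAF protein on the antioxidant response element of its target genes, where BACH1 competes with it as a repressor. The targets import cystine, make glutathione, reduce thioredoxin and peroxiredoxins, degrade heme and store iron. Ferritin is a shell of heavy and light chains, of which the heavy chain oxidizes ferrous iron and the light chain promotes mineral formation in the core. Translation of both ferritin mRNAs is blocked by iron regulatory proteins bound to a stem loop in the 5′ UTR when iron is low, so that a ferritin mRNA level is not a ferritin protein level. GPX4 reduces phospholipid hydroperoxides with glutathione and is the enzyme whose loss leads to ferroptosis, a death by lipid peroxidation that depends on iron.

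The iron-responsive elements of the ferritin mRNAs are shown because they are the regulatory sequence of translation that FTH1 and FTL share. A part of these elements in the mRNA levels was not tested. Each window of 30 bases was read 5′ to 3′ from the GENCODE release 29 transcript, with the loop CAGTGN in capitals. It lies at nucleotides 59 to 88 of FTH1-201 (GRCh38, chr11:61967573-61967602, minus strand) and at nucleotides 35 to 64 of FTL-201 (chr19:48965335-48965364, plus strand), within 5′ UTRs of 235 and 207 nucleotides. The windows were identical at 26 of 30 positions and differed at 4.
FTH1 IRE window: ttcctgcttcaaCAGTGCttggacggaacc
FTL IRE window: ctcttgcttcaaCAGTGTttggacggaaca

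The antioxidant response element core TGACNNNGC was searched on both strands of RefSeq promoter windows (GRCh38.p14, 250 bases before to 50 after each start). Of 35116 windows, 13.3% held the motif. Among the 10 genes, 7 had a window, and 2 of these, GCLM and TXNRD1, held it at 4 sites in 3 of 10 windows. HMOX1, SLC7A11 and FTH1 had no window. Sequence outside the windows was not searched, so that a gene without a match here may hold one elsewhere. All sites found in the set are shown with the motif in capitals, on the strand of the gene. TXNRD1 was the gene of the set with the smallest adjusted p, and GCLM was not called in the main fit. The GCLM site begins 34 bases before the start (chr1:93909446-93909475, minus strand) and reads TGACTAAGC on the opposite strand. TXNRD1 holds sites 99 bases (chr12:104215669-104215698, plus strand) and 8 bases (chr12:104215760-104215789) before its upstream start. A further TXNRD1 site lies 102 bases before the downstream start (chr12:104286919-104286948). A match is a description of these letters and not evidence of binding.
GCLM, 34 bases upstream: ctacgatttctGCTTAGTCAttgtcttcca
TXNRD1, 99 bases upstream: tacacgggctaTGACTTCGCtgttgtcacc
TXNRD1, 8 bases upstream: ggcgtccttcgGCTCCGTCAgttcccacag
TXNRD1, 102 bases upstream of the downstream start: agtggatttctGCTTTGTCAttctgactct

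The libraries held 15040102 to 27835841 counts, and mitochondrial genes took 7.16% to 8.65% of them. MPZL3, the targeted gene, was at 26.1, 29.8 and 28.6 CPM (a gene's counts scaled to a common library size, with library sizes adjusted by the trimmed mean of M values, TMM) in scr control. It was at 5.79, 6.97 and 5.99 CPM with shMPZL3 #1 and at 13.9, 18.5 and 13.2 CPM with shMPZL3 #2, lower in all 6 knockdown libraries than in the controls. The log2 fold changes were -2.17 (adjusted p = 3.73e-07) and -0.89 (adjusted p = 0.000562), and MPZL3 was 1.28 higher on the log2 scale with shMPZL3 #2 than with shMPZL3 #1. Of 10 ovarian carcinoma markers, PAX8 was at 224 to 301 CPM and EPCAM at 363 to 429 CPM, whereas WT1 was at 0.629 CPM or less and MSLN at 3.66 CPM or less. The 5 fibroblast markers summed to 18.3 to 22.2 CPM in scr control, 42.5 to 61.8 CPM with shMPZL3 #1 and 33.8 to 37.6 CPM with shMPZL3 #2. DCN was at 0 in all 9 libraries and COL3A1 at 0.535 CPM or less. Over the 9 libraries COL1A1 was at 11.6 to 42.6 CPM, LUM at 3.54 to 15.7 CPM and COL1A2 at 2.37 to 10.6 CPM. The 3 endothelial markers summed to 8.09 to 9.87 CPM in scr control, 7.31 to 8.80 CPM with shMPZL3 #1 and 12.4 to 16.1 CPM with shMPZL3 #2. The 4 leukocyte markers summed to 0.906 to 1.07, 1.07 to 2.13 and 1.79 to 2.72 CPM in these groups, with CD3E at 0 in 8 libraries. PTPRC was at 0.178 to 1.28 CPM, CD14 at 0.194 to 1.57 CPM and CD79A at 0.259 CPM or less. Fibroblast sums were thus higher in all 6 knockdown libraries, and endothelial and leukocyte sums were higher in all 3 libraries of shMPZL3 #2, than in scr control. All libraries are of OVCAR4 cells in culture, and the sums are given as levels of these mRNAs, not as shares of other cell types. Whether more cells of a pool expressed them or each cell held more cannot be told apart in bulk RNA. The part of these markers in the results was not tested.

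In scr control the ferritin chains were among the most abundant mRNAs of the cells. Per kilobase of the gene length in the table, FTL was at 2335 CPM (range 2211 to 2448) and FTH1 at 1504 CPM (1197 to 1706), the ranks 12 and 18 of the 16928 genes. The order of the chains depends on the length used, since with the length of the main transcript FTH1-201 (1229 in place of 2030 bases) FTH1 was at 2485 CPM per kilobase. GPX4 was at 165 (rank 175), TXNRD1 at 28.6 (rank 1660), NQO1 at 18.4 (rank 2593) and GCLM at 11.1 CPM per kilobase (rank 4073). GCLC, at 4.51 (4.29 to 4.67), and HMOX1, at 3.97 (3.31 to 4.44), overlapped in their ranges. SRXN1 was at 2.15 (1.58 to 2.56) and SLC7A11 at 0.814 CPM per kilobase (0.486 to 1.22), at rank 12535 the lowest of the set. The remaining neighbours did not overlap over the 3 libraries.

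**Figure D1:**
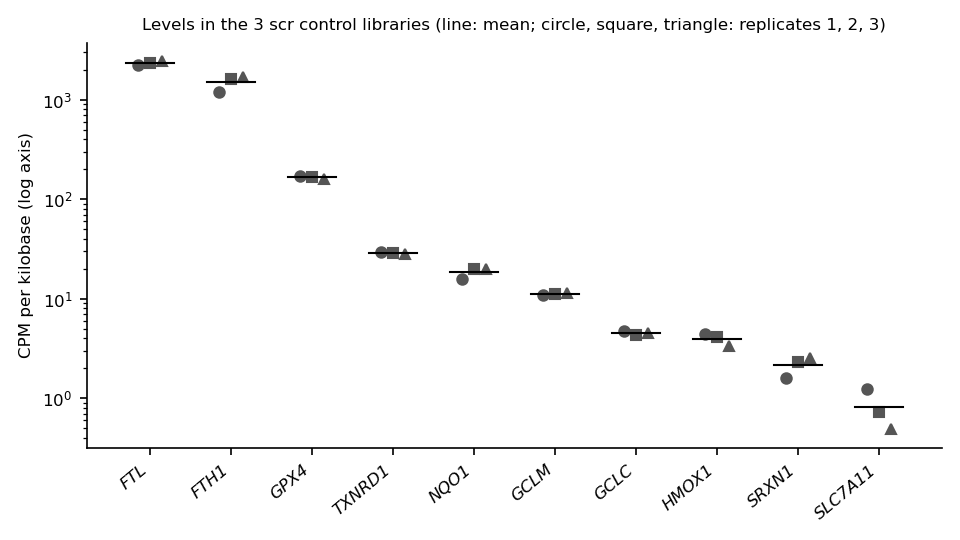
Levels of the 10 genes in the 3 scr control libraries, in CPM per kilobase of the table's gene length on a log axis, with a symbol per library and a line at the mean. The ferritin chains stood at or above 1197 and SLC7A11 at or below 1.22, and neighbouring genes overlapped only for GCLC with HMOX1.

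FTH1 (ENSG00000167996, GRCh38 chr11:61959718-61967660, minus strand) encodes the ferritin heavy chain. It was at 2430, 3269 and 3463 CPM in scr control, at 5137, 4044 and 5302 CPM with shMPZL3 #1 and at 4307, 3738 and 3293 CPM with shMPZL3 #2. All libraries of shMPZL3 #1 lay above all of scr control, whereas 1 library of shMPZL3 #2 lay within the control range. The means were 3054 ± 549, 4828 ± 684 and 3779 ± 508 CPM (SD, n = 3 each). Against scr control FTH1 rose with shMPZL3 #1 (log2 fold change 0.66, SE 0.14, adjusted p = 0.00169, edgeR quasi-likelihood test), and the value with shMPZL3 #2 was 0.31 (SE 0.14, adjusted p = 0.147). The rise with shMPZL3 #1 passed the test in all 16 alternative settings. With both shRNAs grouped the log2 fold change of FTH1 was 0.49 (SE 0.16, 95% interval 0.15 to 0.84) and just missed the threshold (adjusted p = 0.0517). Leaving out replicate 2 of shMPZL3 #2 brought it past the threshold (adjusted p = 0.0438), and so did leaving out replicate 3 (adjusted p = 0.0253). It also passed with DESeq2 (adjusted p = 0.017) and as the mean of both shRNAs in a fit of 3 groups (adjusted p = 0.00742). In 9 of the 16 alternative settings the grouped value stayed uncalled. Over all 16 the adjusted p ran up to 0.268 and the log2 fold change from 0.35 to 0.59.

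FTL (ENSG00000087086, chr19:48965301-48966878, plus strand) encodes the light chain. Its levels were 1942, 2059 and 2149 CPM in scr control, 2892, 1907 and 2185 CPM with shMPZL3 #1 and 1939, 1493 and 1586 CPM with shMPZL3 #2. With shMPZL3 #1 replicate 1 stood alone above the controls, and with shMPZL3 #2 all 3 libraries lay below all controls, replicate 1 narrowly so. Neither shRNA gave a call against control, with log2 fold changes of 0.18 (adjusted p = 0.323) and -0.29 (adjusted p = 0.156). FTL was lower with shMPZL3 #2 than with shMPZL3 #1 (log2 fold change -0.48, SE 0.13, adjusted p = 0.0241). That call was lost without replicate 1 of shMPZL3 #1 (log2 fold change -0.30, adjusted p = 0.0835) and without replicate 2 (adjusted p = 0.0802) or 3 (adjusted p = 0.0959) of shMPZL3 #2.

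Within a library the ratio of FTH1 to FTL counts needs no scaling between libraries. This ratio was formed after the values had been seen and is given without a test. It was 1.25, 1.59 and 1.61 in scr control, 1.78, 2.12 and 2.43 with shMPZL3 #1 and 2.22, 2.50 and 2.08 with shMPZL3 #2. All 6 knockdown libraries lay above all 3 controls, although FTH1 and FTL alone overlapped between these groups. Of all single genes 22.8% separated these groups, and no such share is given for ratios of gene pairs. Processed pseudogenes of ferritin are numerous in the genome, and reads could be shared with them. The 25 annotated FTH1 pseudogenes held 5509 counts, 0.757% of the 727410 counts of FTH1, and the 16 of FTL held 306 counts, 0.0824% of those of FTL.

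**Figure D2:**
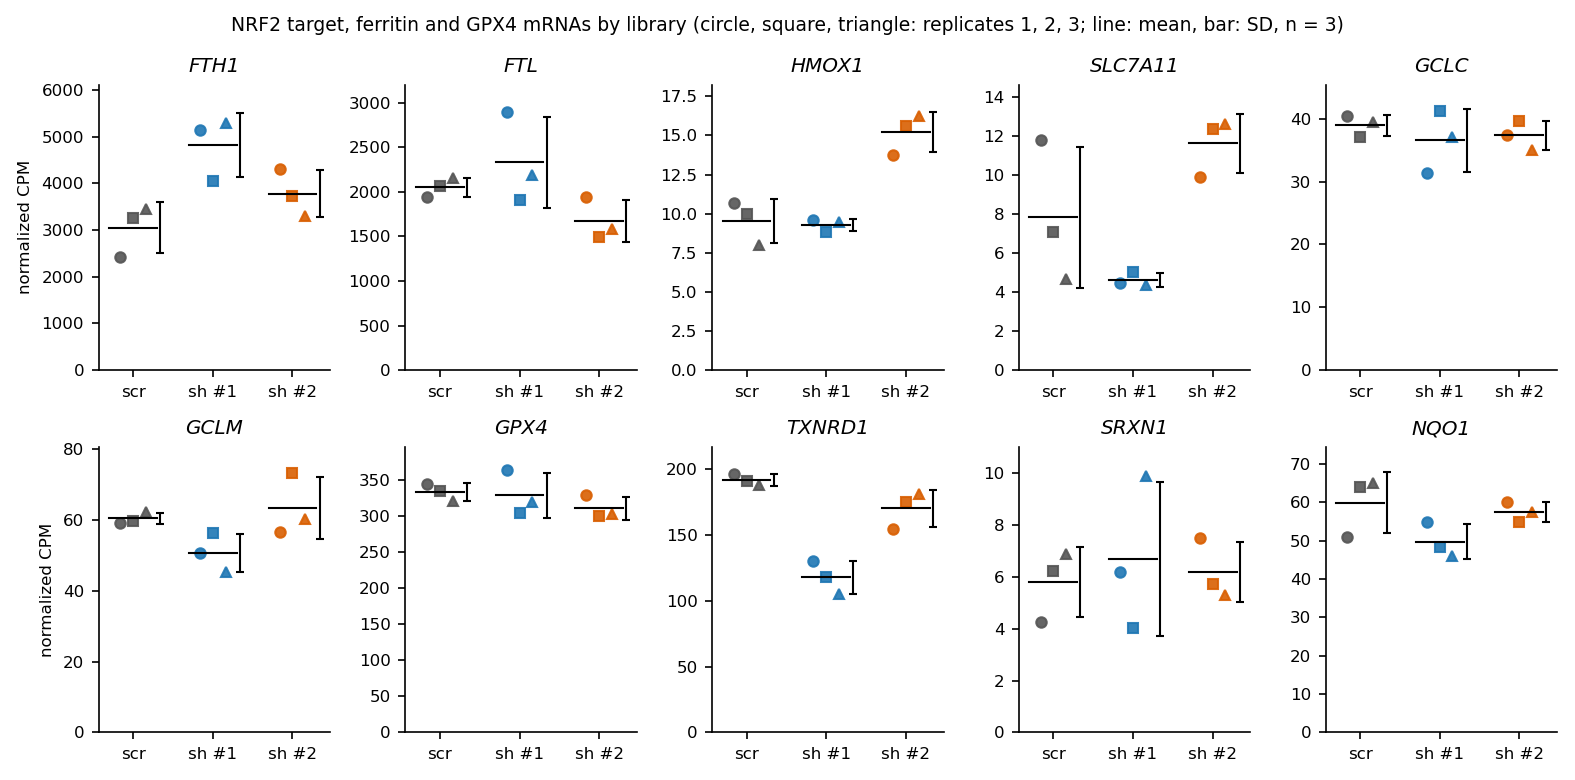
Normalized CPM of the 10 genes in each of the 9 libraries, with each axis starting at 0, a symbol per replicate, a line at the mean and a bar of 1 SD (n = 3). The groups separated for TXNRD1 with shMPZL3 #1 (105 to 130.02 against 188 to 196 CPM in scr control) and for HMOX1 with shMPZL3 #2 (13.75 to 16.2 against 7.97 to 10.7 CPM), while GPX4 and GCLC overlapped across groups.

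**Figure D3:**
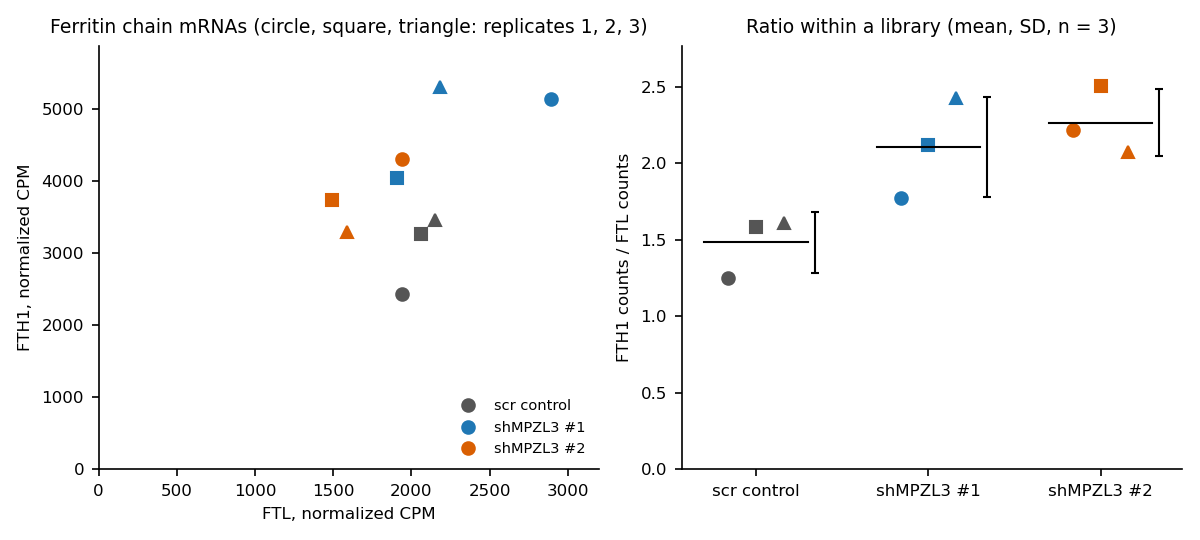
Left, FTH1 against FTL in normalized CPM, with a symbol per library coloured by group. Right, the ratio of FTH1 to FTL counts within each library with the mean and SD (n = 3), where the knockdown libraries sat between 1.78 and 2.50 and the controls between 1.25 and 1.61.

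SLC7A11 (ENSG00000151012, chr4:138164097-138242349, minus strand), the cystine importer that supplies cysteine for glutathione, was the gene of the set whose shRNAs differed most. It was at 11.8, 7.07 and 4.69 CPM in scr control, at 4.46, 5.03 and 4.38 CPM with shMPZL3 #1 and at 9.91, 12.35 and 12.6 CPM with shMPZL3 #2. The controls spread over more than the distance of their mean from that of either shRNA, while the shRNA groups did not overlap each other. SLC7A11 fell with shMPZL3 #1 (log2 fold change -0.76, SE 0.25, adjusted p = 0.0292) and was not called with shMPZL3 #2 (0.57, SE 0.24, adjusted p = 0.122). Both values turn on replicate 1 of scr control. Without it the fall with shMPZL3 #1 was -0.37 (adjusted p = 0.252) and the value with shMPZL3 #2 was 0.96 (adjusted p = 0.00967). The fall was also lost without replicate 1 (adjusted p = 0.0784) or 3 (adjusted p = 0.0868) of shMPZL3 #1. The difference between the shRNAs, in which no control enters the contrast, was 1.33 (SE 0.25, 95% interval 0.81 to 1.85, adjusted p = 0.00167) and passed the test in all 15 alternative settings. SLC3A2, its heavy-chain partner in the cystine transporter and named after its values were seen, was at 155 to 165 CPM in scr control, 145 to 186 CPM with shMPZL3 #1 and 224 to 244 CPM with shMPZL3 #2. It rose with shMPZL3 #2 (log2 fold change 0.54, adjusted p = 0.00165) and was higher than with shMPZL3 #1 (0.52, adjusted p = 0.0025).

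GCLC (ENSG00000001084, chr6:53497341-53616970, minus strand) and GCLM (ENSG00000023909, chr1:93885205-93909456, minus strand) encode the catalytic and modifier subunits of glutamate-cysteine ligase, the rate-limiting enzyme of glutathione synthesis. GCLC was at 40.4, 37.1 and 39.4 CPM in scr control, 31.3, 41.3 and 37.2 CPM with shMPZL3 #1 and 37.5, 39.6 and 35.0 CPM with shMPZL3 #2. These groups overlapped, and the 95% intervals of the log2 fold change ran from -0.33 to 0.15 and from -0.30 to 0.18. GCLM was at 59.1, 59.7 and 62.2 CPM in scr control, 50.6, 56.1 and 45.3 CPM with shMPZL3 #1 and 56.5, 73.2 and 60.2 CPM with shMPZL3 #2. All GCLM values of shMPZL3 #1 lay below the controls, but the log2 fold change of -0.25 missed the threshold (SE 0.11, adjusted p = 0.103). It passed without replicate 2 of shMPZL3 #1 (adjusted p = 0.0477). Between the shRNAs GCLM differed by 0.32 (adjusted p = 0.0661), which passed the test with a block for the replicate number (adjusted p = 0.0228) and without replicate 2 of shMPZL3 #1 (adjusted p = 0.0408).

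GPX4 (ENSG00000167468, chr19:1103926-1106791, plus strand) was at 344, 335 and 320.3 CPM in scr control, 363, 303 and 319 CPM with shMPZL3 #1 and 328, 300.2 and 303 CPM with shMPZL3 #2. The groups overlapped, with means of 333 ± 12.0, 328 ± 30.9 and 310 ± 15.6 CPM (SD, n = 3 each). Against scr control the log2 fold change was -0.02 (95% interval -0.22 to 0.18) with shMPZL3 #1 and -0.10 (-0.30 to 0.10) with shMPZL3 #2. Its sign with shMPZL3 #1 turned under upper-quartile normalization (0.010). Per kilobase GPX4 was the most abundant mRNA of the set after the ferritin chains, and its intervals were the narrowest.

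TXNRD1 (ENSG00000198431, chr12:104215779-104350305, plus strand) encodes cytosolic thioredoxin reductase, a selenoenzyme that keeps thioredoxin reduced. It was at 196, 191 and 188 CPM in scr control, at 130.02, 118 and 105 CPM with shMPZL3 #1 and at 154, 175 and 181 CPM with shMPZL3 #2. All 6 knockdown libraries lay below all 3 controls, and the shRNA groups did not overlap each other. TXNRD1 fell with shMPZL3 #1 (log2 fold change -0.70, SE 0.10, adjusted p = 9.72e-05) and was not called with shMPZL3 #2 (-0.17, SE 0.10, adjusted p = 0.278). The shRNAs differed by 0.53 (SE 0.10, adjusted p = 0.00218), and both calls held in every alternative setting tried. In the grouped comparison the value was -0.41 (SE 0.15, adjusted p = 0.0841, exact two-sided permutation p = 0.0357 for 6 against 3 libraries). Without replicate 2 of shMPZL3 #2 it passed the test (adjusted p = 0.0449), as it did when replicate 3 was left out (adjusted p = 0.0463). In 12 of 16 alternative settings the grouped value stayed uncalled, and the adjusted p ran up to 0.232. Its substrate thioredoxin, TXN, named after its values were seen, was at 161 to 174 CPM in scr control, 102 to 127 CPM with shMPZL3 #1 and 159 to 183 CPM with shMPZL3 #2. TXN fell with shMPZL3 #1 (log2 fold change -0.51, adjusted p = 0.00141) and differed between the shRNAs by 0.52 (adjusted p = 0.00283). Of the other thioredoxin reductases, also named after their values were seen, TXNRD3 rose with both shRNAs (0.80 and 0.51, adjusted p = 0.000171 and 0.0115). TXNRD2 was not called with either (-0.04 and 0.09, adjusted p = 0.847 and 0.683).

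SRXN1 (ENSG00000271303, chr20:646615-653370, minus strand), sulfiredoxin, restores overoxidized peroxiredoxins. It was at 4.27, 6.25 and 6.90 CPM in scr control, 6.20, 4.02 and 9.90 CPM with shMPZL3 #1 and 7.49, 5.73 and 5.31 CPM with shMPZL3 #2. The replicates of shMPZL3 #1 spread more than the groups differed. With 1155 counts over all libraries, the lowest of the set, SRXN1 had the widest intervals for 1 shRNA against the control, from -0.38 to 0.79 and from -0.50 to 0.67 on the log2 scale. Its sign changed when single libraries were left out.

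HMOX1 (ENSG00000100292, chr22:35380361-35394214, plus strand) encodes heme oxygenase 1, which degrades heme and releases its iron, and is a gene on which BACH1 repression is well known. It was at 10.7, 9.97 and 7.97 CPM in scr control, 9.58, 8.85 and 9.44 CPM with shMPZL3 #1 and 13.75, 15.6 and 16.2 CPM with shMPZL3 #2. All libraries of shMPZL3 #2 lay above the other 6. HMOX1 rose with shMPZL3 #2 (log2 fold change 0.67, SE 0.15, adjusted p = 0.00676) and was not called with shMPZL3 #1 (-0.04, 95% interval -0.37 to 0.29). The shRNAs differed by 0.71 (SE 0.15, adjusted p = 0.00461). The rise and the difference passed the test in all alternative settings, with adjusted p of at most 0.0472 and 0.0288.

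NQO1 (ENSG00000181019, chr16:69706996-69726951, minus strand) encodes the quinone reductase that is commonly read as the marker of NRF2 activity. It was at 50.9, 63.9 and 65.1 CPM in scr control, 54.8, 48.5 and 46.0 CPM with shMPZL3 #1 and 59.99, 54.8 and 57.5 CPM with shMPZL3 #2. The groups overlapped. The log2 fold change was -0.27 (95% interval -0.51 to -0.03, adjusted p = 0.0765) with shMPZL3 #1 and -0.06 (-0.30 to 0.17, adjusted p = 0.751) with shMPZL3 #2. Without replicate 1 of scr control, the lowest of the controls, the value with shMPZL3 #1 passed (-0.38, adjusted p = 0.0282).

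Counted together, with shMPZL3 #1 1 of the 10 genes was called higher and 2 lower, where 16.8% of all 16928 genes were called higher and 15.3% lower. With shMPZL3 #2 1 was called higher and none lower, beside 9.36% and 5.8% of all genes. Those shares stand for 2567 genes, a count that was 1398 and 1579 without replicates 1 and 2 of scr control and 1366 without replicate 3 of shMPZL3 #2. Between the shRNAs 3 genes were higher and 1 lower with shMPZL3 #2, beside 7.56% in each direction. These were 2559 genes, and 1584 without replicate 3 of shMPZL3 #1, 1647 without replicate 1 and 1469 without replicate 3 of shMPZL3 #2. In the grouped comparison, the study's own design, edgeR called 0 of 10, where 9.36% of all genes were called higher and 6.4% lower. DESeq2 called 1 gene grouped (FTH1), a count for which no share of all genes is given. In that comparison TXNRD1 alone separated all 6 knockdown from all 3 control libraries, as did 22.8% of all genes. The shares of the 10 genes called against control were near those of all genes, and the median log2 fold change of the 10 was -0.05 grouped, -0.07 with shMPZL3 #1 and 0.00 with shMPZL3 #2, beside 0.02, 0.01 and 0.00 for all genes. Both shRNAs were compared with the same 3 control libraries. With a block for the replicate number, an alternative setting, 6 genes in place of 4 were called between the shRNAs. The block added GCLM and FTH1 (log2 fold change -0.35, adjusted p = 0.0441 in place of 0.0952). The 7.56% in each direction belongs to the main fit, and no share of all genes is given for the block.

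**Figure D4:**
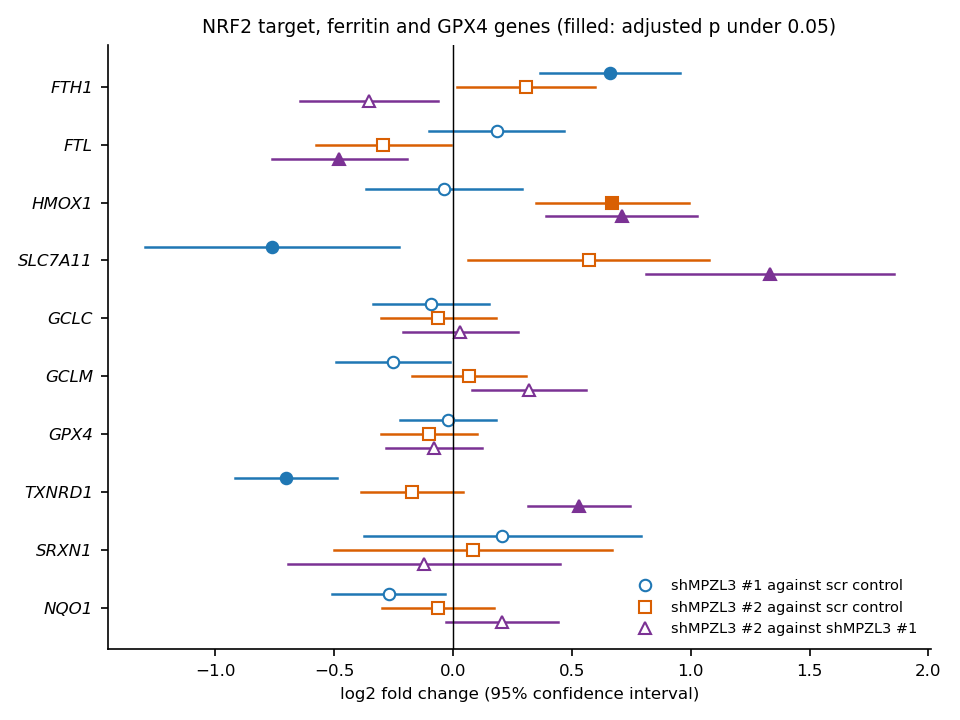
Log2 fold changes of the 10 genes with 95% confidence intervals for shMPZL3 #1 and shMPZL3 #2 against scr control and for shMPZL3 #2 against shMPZL3 #1, filled where the adjusted p was under 0.05. Filled symbols appear for FTH1, TXNRD1 and SLC7A11 with shMPZL3 #1, for HMOX1 with shMPZL3 #2, and for HMOX1, SLC7A11, TXNRD1 and FTL between the shRNAs.

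The regulators of NRF2 were examined next, as a list of 9 genes. NFE2L2 itself was at 62.1 to 67.9 CPM in scr control, 65.2 to 76.8 CPM with shMPZL3 #1 and 51.5 to 68.3 CPM with shMPZL3 #2, and was not called for either shRNA (log2 fold change 0.11, adjusted p = 0.49, and -0.17, adjusted p = 0.369). KEAP1 was not called either, with -0.17 (adjusted p = 0.248) and -0.02 (adjusted p = 0.915). BACH1, the repressor, was at 34.6 to 36.8 CPM in scr control, 29.2 to 36.4 CPM with shMPZL3 #1 and 24.6 to 26.2 CPM with shMPZL3 #2. It fell with shMPZL3 #2 (-0.47, SE 0.11, adjusted p = 0.0109) and was not called with shMPZL3 #1 (-0.15, adjusted p = 0.34) or between the shRNAs (-0.32, adjusted p = 0.0718).

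Of the small MAF partners, MAFK rose with both shRNAs (0.62 and 0.61, adjusted p = 0.00269 and 0.00622), from 36.3 to 38.0 CPM in scr control to 48.5 to 73.0 CPM in the knockdown libraries. MAFF was at 7.06 to 8.84 CPM in scr control, 5.62 to 6.69 CPM with shMPZL3 #1 and 11.1 to 17.8 CPM with shMPZL3 #2. MAFF rose with shMPZL3 #2 (0.77, adjusted p = 0.0117), and the shRNAs differed by 1.16 (adjusted p = 0.000745). SQSTM1, the autophagy adaptor p62 that binds KEAP1, was named after its values were seen and rose with both (0.64 and 0.48, adjusted p = 0.000233 and 0.00459). In all, 2 of the 9 regulators were called higher and 0 lower with shMPZL3 #1, and 4 higher and 1 lower with shMPZL3 #2. The shares of all genes to set beside these counts, and those of the further lists, are 16.8% higher and 15.3% lower with shMPZL3 #1 and 9.36% higher and 5.8% lower with shMPZL3 #2. Exons of neighbours on the other strand overlap MAFK (TMEM184A, 5416 counts over all libraries), NFE2L2 (AGPS, 10564 counts) and SQSTM1 (MGAT4B, 53926 counts), and these reads carry no strand.

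Of 24 tested further NRF2 targets, 6 were called higher and 5 lower with shMPZL3 #1, and 3 higher and 2 lower with shMPZL3 #2. AKR1C3, an aldo-keto reductase with near-identical paralogs, was at 3.82 to 4.87 CPM in scr control, 6.78 to 10.0 CPM with shMPZL3 #1 and 2.76 to 4.35 CPM with shMPZL3 #2. It rose with shMPZL3 #1 (0.83, adjusted p = 0.00962) and the shRNAs differed by -1.14 (adjusted p = 0.00256). GSR, which recycles oxidized glutathione, and PRDX1, a peroxiredoxin, were named after their values were seen and fell with both shRNAs. GSR gave -0.35 and -0.33 (adjusted p = 0.0176 and 0.0412) and PRDX1 gave -0.59 and -0.34 (adjusted p = 0.000687 and 0.0473). BLVRB, a biliverdin reductase of the same list also named after its values were seen, rose with both (0.42 and 0.42, adjusted p = 0.0138 and 0.0244), so that list members moved in either direction.

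Among 16 tested glutathione enzymes, 2 were called higher and 4 lower with shMPZL3 #1, and 1 higher and 2 lower with shMPZL3 #2. GPX3, a secreted glutathione peroxidase, was at 382 to 399.6 CPM in scr control and at 195 to 273 CPM in the 6 knockdown libraries. GPX3 fell by 0.76 and by 0.80 on the log2 scale with shMPZL3 #1 and shMPZL3 #2 (adjusted p = 0.000296 and 0.000415). It was the glutathione enzyme that met the rule of a change of at least 0.58 with both shRNAs.

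In the thioredoxin system and superoxide defence, with 13 genes tested, 3 were called higher with each shRNA, 2 lower with shMPZL3 #1 and 1 lower with shMPZL3 #2. TXNIP, the inhibitor of thioredoxin, was at 59.4, 78.1 and 84.3 CPM in scr control, 258, 315 and 328 CPM with shMPZL3 #1 and 197, 292 and 241 CPM with shMPZL3 #2. It rose with both (2.02 and 1.72, SE 0.15 each, adjusted p = 4.98e-07 and 1.56e-06), the largest changes among the tested genes of the 6 lists with either shRNA. SOD2, the mitochondrial superoxide dismutase, rose from 86.1 to 111 CPM in scr control to 130 to 200 CPM in the knockdown libraries (0.61 and 0.77, adjusted p = 0.00171 and 0.000519). WTAP, on the other strand, overlaps exons of SOD2 and held 10986 counts against 26524 for SOD2. PRDX3, a mitochondrial peroxiredoxin named after its values were seen, fell with both (-0.66 and -0.45, adjusted p = 0.000666 and 0.0212).

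Of 18 tested genes of iron and heme handling, 3 were called higher and 6 lower with shMPZL3 #1, and 0 higher and 4 lower with shMPZL3 #2. FLVCR1, a heme exporter, was at 19.4 to 22.5 CPM in scr control and 9.95 to 14.9 CPM in the knockdown libraries, and fell with both (-0.77 and -0.76, adjusted p = 0.00216 and 0.00507). SLC40A1, the iron exporter ferroportin, was at 2.48 to 4.40 CPM in scr control, 5.30 to 8.56 CPM with shMPZL3 #1 and 2.86 to 4.10 CPM with shMPZL3 #2. It rose with shMPZL3 #1 (1.02, adjusted p = 0.00493), and the shRNAs differed by -1.06 (adjusted p = 0.00771).

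The iron regulatory proteins that bind the loops shown above, ACO1 and IREB2, were named after their values were seen. ACO1 fell with both shRNAs (-0.48 and -0.43, adjusted p = 0.00563 and 0.0227), and so did IREB2 (-0.41 and -0.53, adjusted p = 0.0124 and 0.0055). TFRC, the transferrin receptor, was at 943 to 993 CPM in scr control and fell with shMPZL3 #1 to 602 to 783 CPM (-0.46, adjusted p = 0.00397). With shMPZL3 #2 TFRC was at 825 to 971 CPM (-0.14, adjusted p = 0.424). NCOA4, the receptor that carries ferritin to autophagy, was higher with shMPZL3 #1 (0.27, adjusted p = 0.0444) and lower with shMPZL3 #2 (-0.36, adjusted p = 0.0222), and the shRNAs differed by -0.63 (adjusted p = 0.000501). TFRC and NCOA4 were also named after their values were seen.

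Of 13 tested genes of ferroptosis and selenoprotein synthesis, 3 were called higher and 3 lower with shMPZL3 #1, and 2 higher and 0 lower with shMPZL3 #2. GCH1, which makes the tetrahydrobiopterin precursor and was named after its values were seen, rose from 18.7 to 20.1 CPM in scr control to 25.6 to 35.1 CPM in the knockdown libraries (0.58 and 0.74, adjusted p = 0.00238 and 0.000716). Over the 93 tested genes of all 6 lists, 19 were called higher and 20 lower with shMPZL3 #1, 13 higher and 10 lower with shMPZL3 #2, and 7 higher and 5 lower between the shRNAs. Of all genes, 16.8% and 15.3%, 9.36% and 5.8%, and 7.56% in each direction were called in these comparisons. Their median log2 fold change was -0.05 with shMPZL3 #1 and -0.01 with shMPZL3 #2.

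**Figure D5:**
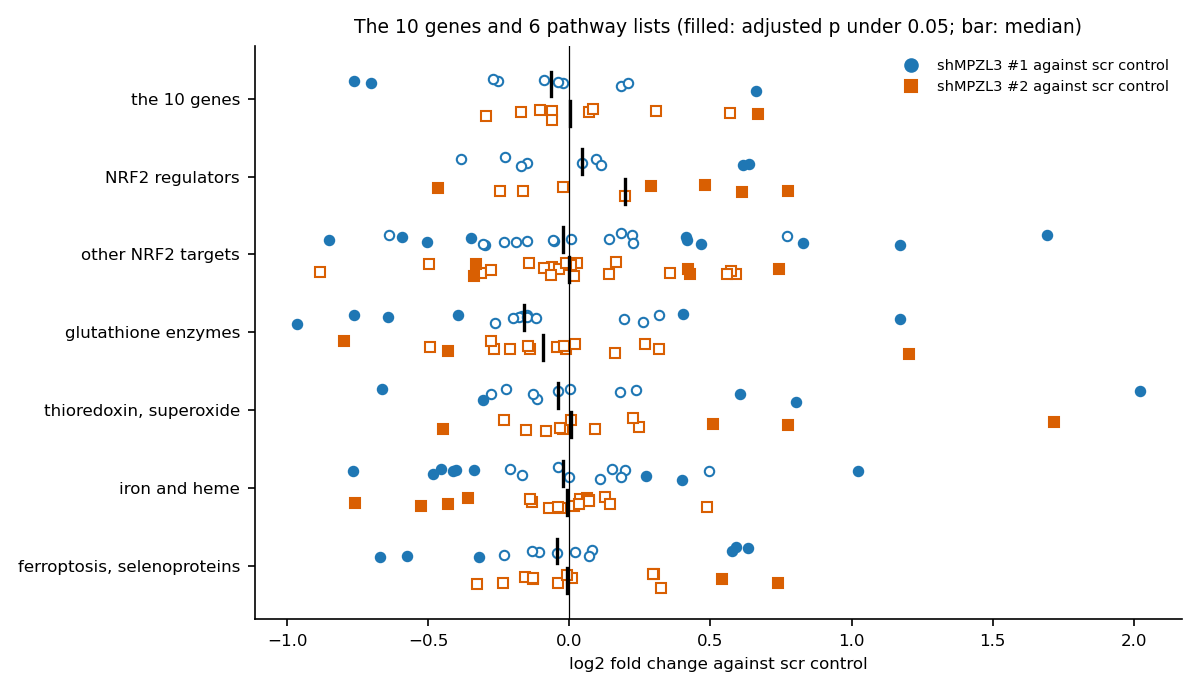
Log2 fold changes against scr control of the 10 genes and of the tested genes of the 6 lists, circles for shMPZL3 #1 and squares for shMPZL3 #2, filled where the adjusted p was under 0.05, with a bar at each list's median. Each list spreads to both sides of 0, and the points farthest to the right are TXNIP at 2.02 and 1.72.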

How the data were processed

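The authors sequenced poly-A selected libraries without strand information on the Illumina NovaSeq platform and deposited 1 table of raw counts per gene and library, neither normalized nor pooled. The submitters' processing notes name HISAT2 2.0.5, featureCounts 1.5.0-p3 and hg38. All 58735 genes of the table had the identifier, name and coordinates of GENCODE release 29 (GRCh38). The gene length column of the table was used for levels per kilobase. The 10 genes and the pathway lists (102 genes, 93 tested, written from general knowledge) were chosen with earlier results of these data known.

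Counts were tested with edgeR 4.0.16 in R 4.3.3 (filterByExpr, TMM, two-sided quasi-likelihood tests, Benjamini-Hochberg over the 16928 genes tested, called at an adjusted p under 0.05). The 6 knockdown libraries were compared with the 3 controls, as in the study, and each shRNA with control and with the other in a fit of 3 groups that share the spread. Exact permutation tests can reach 0.0119 for 6 against 3 libraries and 0.1 for 3 against 3. Total counts of 15040102 to 27835841 leave counting error small for all but SLC7A11, SRXN1 and HMOX1. Replicates of a group differed by more than counting noise (chi-square per gene 3.03 to 21.2). Deviations from group means correlated at 0.298, 0.572 and 0.277 between same-numbered libraries of the shRNAs. Between shRNA libraries of different numbers the correlations ran from -0.41 to 0.11. With scr control the same-numbered correlations ran from -0.01 to 0.24 and the others from -0.26 to 0.16. The labels do not say whether same-numbered libraries were handled together, and the block is given as an alternative setting only. The larger of 2 SOD2 rows was used. The alternatives were DESeq2 1.42.0, RLE and upper-quartile normalization, other filters, a replicate block, other fits and leaving out each library. The tests were tested on simulated counts. In the grouped comparison 12 of 16353 genes simulated as unchanged were called. Of genes simulated at 1.5-fold 25 of 56 were called, at 2-fold 51 of 71 and at 4-fold 65 of 70. A gene that was not called is therefore not shown to be unchanged. The simulation gave both shRNAs the same level, with the spread taken within the 3 groups. Its rates do not cover genes on which the shRNAs differed, and 2559 genes were called between them in the main fit.

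Beside the 10 genes, NFE2L2, KEAP1 and BACH1 are named, together with list genes that both shRNAs moved in 1 direction by 0.58 or more on the log2 scale (average log2 CPM 1 or more) and those called between the shRNAs with a difference of 1 or more. Others are marked as named after their values were seen. MAFG, CUL3 and the remaining list genes enter the counts only.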

Additional observations from a re-analysis of the deposited data

Results flagged for a closer look

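In 4 of the 10 genes the shRNAs differed in the direct test of shMPZL3 #2 against shMPZL3 #1 (edgeR quasi-likelihood test, all 9 libraries in the fit), 3 higher and 1 lower, where 7.56% of all genes were called in each direction. With the block for the replicate number 6 were called, adding GCLM (0.32) and FTH1 (-0.35). The 7.56% belongs to the main fit and is no share for the block. Over the alternative settings the count of all genes called ran from 1469 to 3823. SLC7A11 differed by 1.33 on the log2 scale, with 3 of 3 libraries of shMPZL3 #2 above all of shMPZL3 #1. HMOX1 differed by 0.71 and TXNRD1 by 0.53, each likewise without overlap in 3 of 3 libraries. GCLM, not called in the main fit, did not overlap between the shRNAs either. No share of all genes is given for this separation, and exact permutation of 3 against 3 libraries cannot go below 0.1. FTL differed by -0.48, a value that rested on single libraries, since the call was lost when replicate 1 of shMPZL3 #1 or replicate 2 or 3 of shMPZL3 #2 was left out. MPZL3 itself was 1.28 higher on that scale with shMPZL3 #2 than with shMPZL3 #1, and the part of the unequal knockdown in these differences was not tested.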

How the results depend on the processing

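Grouped, 0 of the 10 genes were called, 1 with DESeq2, with upper-quartile normalization or with at least 10 counts in every library, and 2 with no filter or with the mean of both shRNAs in the fit of 3 groups. Leaving out 1 library gave 0 to 2 there, 2 to 4 with shMPZL3 #1 (3 called), 1 to 2 with shMPZL3 #2 (1 called) and 3 to 6 between the shRNAs (4 called). With shMPZL3 #2, 3 were called with no filter (adding FTH1 and SLC7A11), 3 with the replicate block (adding SLC7A11 and FTL) and 2 in a fit of 2 groups (adding FTL). Against scr control the block called 0 grouped and 4 with shMPZL3 #1, adding GCLM. Between the shRNAs the replicate block changed no call beyond GCLM and FTH1 (6 called). The cause of these moves was not tested.

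The signs that turned belonged to values not called. GPX4 with shMPZL3 #1 was 0.010 with upper-quartile normalization and 0.016 with at least 10 counts, and SLC7A11 grouped was -0.10 as the mean of both shRNAs. With 1 library left out, the log2 fold changes ran from -0.076 to 0.033 for GPX4 with shMPZL3 #1, from -0.22 to 0.45 for SLC7A11 grouped and from -0.15 to 0.042 for FTL grouped. They ran from -0.16 to 0.039 for HMOX1 with shMPZL3 #1, from -0.19 to 0.032 and from -0.080 to 0.13 for GCLC with shMPZL3 #1 and between the shRNAs, and from -0.051 to 0.13 for GCLM with shMPZL3 #2. For SRXN1 they ran from -0.034 to 0.28 grouped, from -0.18 to 0.47 and from -0.10 to 0.21 with shMPZL3 #1 and #2, and from -0.38 to 0.27 between them. Over all genes, 2667 were called grouped, 625, 962 and 1238 without replicates 1, 2 and 3 of scr control, and 4677 with the mean of both shRNAs.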
